A study of Saccharomyces cerevisiae with 236 samples.

Results

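The mitochondrial large ribosomal subunit was followed here through the deletion strains of 40 of its protein genes in budding yeast, chosen as the rows of the array table that begin with 1 of 40 listed ORFs. They gave 44 deletion strains of the 5179 on the array, because 3 genes had more than 1 strain, and 86 barcode tags, since 42 strains carried an uptag and a downtag and 2 strains carried 1 tag. The mitochondrial ribosome translates the few proteins encoded in mitochondrial DNA, most of them core subunits of the respiratory chain and of ATP synthase. In budding yeast, loss of a large subunit protein generally abolishes respiratory growth, and many such strains lose their mitochondrial DNA and live by fermentation. Of the 40, 25 belong to families shared with bacterial ribosomes and 15 are known only from mitochondrial ribosomes.

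Pools of all deletion strains were grown in competition for 5 generations, and strain abundance was read on barcode arrays as log2 intensity, the processed values the authors deposited. BC_prot is a MATa collection made prototrophic by backcrossing, with the can1 locus replaced by a STE2 promoter driving Schizosaccharomyces pombe HIS5 and with his3 and lyp1 deleted. PB_prot is the haploid MATa BY4741 collection made prototrophic with the plasmid pHLUM, which carries HIS3, LEU2, URA3 and MET17. YKO_aux is the homozygous diploid BY4743 collection, which needs histidine, leucine and uracil and is heterozygous for lys2 and met17 deletions. Every strain of every pool carries a deletion, so a level is relative to the other mutants of that pool and not to a wild type.

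Each pool was grown in glycerol (YPG, 3% glycerol) or in YPD with 200 µM cisplatin, set against YPD, and with 32 µM CCCP, 6 µM FCCP or 125 µM PYRQ (a compound known here by its code), set against YPD with 2% DMSO. CCCP and FCCP are protonophores that uncouple respiration from ATP synthesis, and cisplatin damages DNA. Minimal medium (MM) and media lacking single amino acids or bases (dropouts) were set against synthetic complete medium (SC). The MM of YKO_aux was supplemented, by its labels with histidine, leucine, lysine, methionine and uracil, of which the paper does not list lysine. It thus differed from the MM of the other collections. The starting pools (T0) were hybridised without growth. BC_prot had 4 YPG, 3 CCCP, 3 FCCP, 7 YPD_DMSO and 9 YPD arrays, PB_prot had 4, 3, 3, 8 and 9, and YKO_aux had 2, 3, 3, 9 and 8. By the methods, replicates were biological and came from independent experiments, which the array labels do not detail further.

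Of 236 arrays all but 2 had a group, and the number of arrays limits the precision. A strain was counted as present when at least 1 tag lay above background (posterior over 0.5 in a 2-component Gaussian mixture) in every control array. The YPD-media thresholds were 7.37 for BC_prot, 7.73 for PB_prot and 7.16 for YKO_aux. Some arrays stood apart, and results that rest on them are given with and without them. In YKO_aux, 2 YPD arrays (replicates 1 and 8) and 1 YPD_DMSO array, and in PB_prot 1 array each of YPD, YPD_DMSO and SC, had over 2 times the median spread of the control arrays of their set. In 30 of 81 BC_prot arrays, tags absent from the BC_prot starting pool but present in the PB_prot one exceeded tags absent from all 3 starting pools by a median of over 1 log2 unit, among them all 4 YPG arrays and 4 of 9 YPD arrays but no CCCP, FCCP, MM or T0 array. Background tags of the YPG arrays also deviated together with those of some YPD arrays (4 of 9 in BC_prot, 4 of 9 in PB_prot and 4 of 8 in YKO_aux, mean r of 0.15 to 0.95) and not with the others (mean r of -0.87 to -0.04), so YPG is given against both sets of YPD arrays below.

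The roster of large subunit strains differed widely between the collections. In the starting pools, BC_prot held 6 of the 40 genes, PB_prot 30 and YKO_aux 32, whereas 84.6%, 88.2% and 91.1% of all genes on the array were present in those 3 pools. In SC the members counted 6 in BC_prot, 28 in PB_prot and 31 in YKO_aux, and in the YPD media they counted 6, 25 and 18. The 6 genes of BC_prot were the same in every set: RML2 (YEL050C), the relative of bacterial L2 in the peptidyl transferase region, MRPL10, MRPL39 (YML009C, with 2 strains), MRPL44, MRPL50 and MRP49 (YKL167C).

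**Figure D1:**
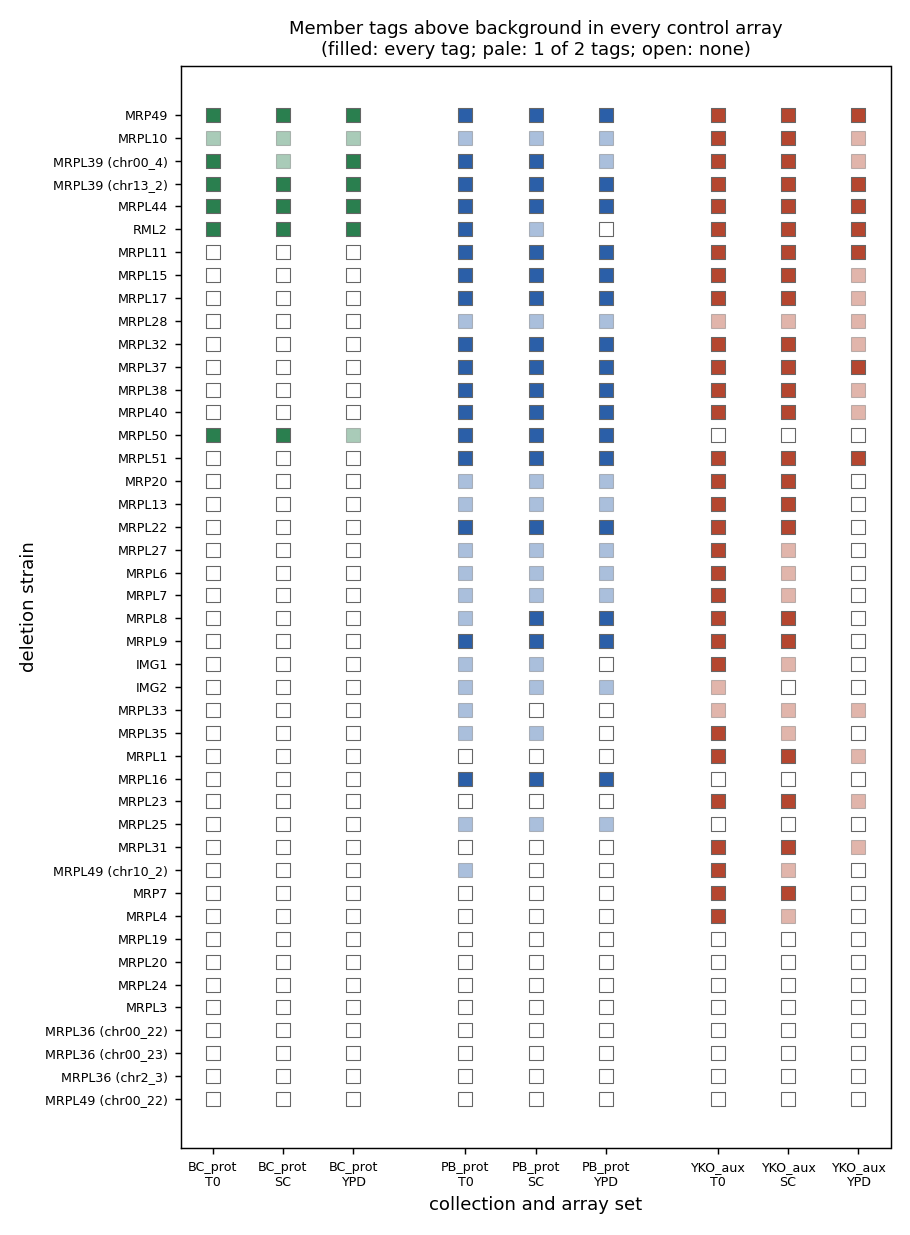
Presence of the 44 member strains (rows) in BC_prot, PB_prot and YKO_aux (columns) at T0 and in the SC and YPD media sets. A filled square marks a strain with every tag above background in every control array, a pale square a strain with 1 of 2 tags, and an open square a strain with none, and 7 of 44 strains are marked in the BC_prot columns.

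Genes of both classes were missing. MRPL3, MRPL19, MRPL20, MRPL24 and MRPL36 (which had 3 strains) were above background in no set of any collection. MRP7, the relative of bacterial L27, MRPL1 (L1 of the stalk beside the exit site), MRPL4 (L29), MRPL23 (L13) and MRPL31 were present in YKO_aux alone, MRPL16 (L16) and MRPL25 in PB_prot alone, and MRPL50 (L9) in BC_prot and PB_prot. The roster was smaller when every tag had to be present, at 16 genes of PB_prot in each set and 7 of YKO_aux in YPD. The YKO_aux count in YPD rested on few arrays, because it was 31 without the 3 arrays that stand apart and 27 without YPD replicate 8 alone.

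Other genes of the same pathway were sparse in BC_prot too. Of 29 small subunit genes on the array, 4 were present in its starting pool, against 19 in PB_prot and 22 in YKO_aux. Of 18 genes of respiratory complexes III and IV, whose core subunits the ribosome makes, 9 were present in BC_prot, 15 in PB_prot and 13 in YKO_aux at T0. These lists were chosen with earlier results of these data known.

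The YKO_aux members sat high in the starting pool and lower after growth. Within an array, the 86 member tags had a median percentile of 37.4 in YPD (range 19.6 to 46.4, 8 arrays) and 40.6 in SC (4 arrays), against 68.9 at T0 (67.4 to 70.5, 5 arrays), and 35 of the 44 strains had a lower median percentile in YPD than at T0. PB_prot members were at 35.2 in YPD and 37.3 in SC against 32.8 at T0, with 21 of 44 strains lower in YPD. In BC_prot, where most members were absent, the medians were 15.4 in YPD and 13.7 at T0. T0 arrays were normalised apart from the others, so these percentiles are a description without a test.

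**Figure D2:**
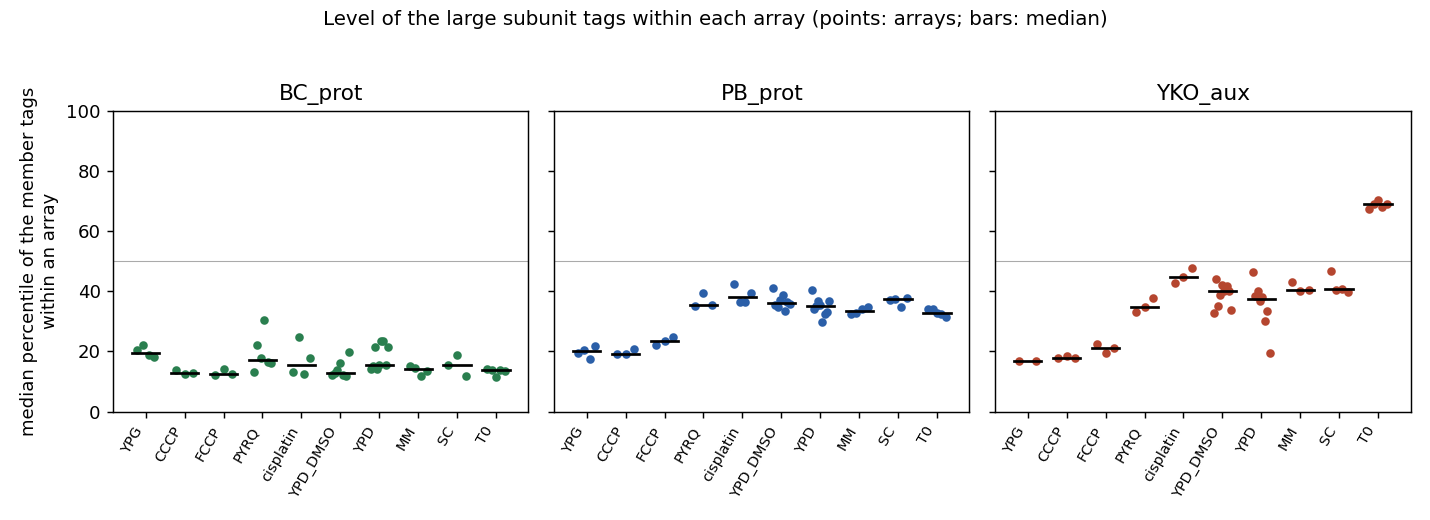
Median percentile of the 86 member tags within each array (vertical axis, 0 to 100) by condition, for BC_prot, PB_prot and YKO_aux. Points are arrays and bars their median, and YKO_aux stands at 68.9 at T0, above all of its arrays after growth, and PB_prot at 32.8 at T0 and 35.2 in YPD.

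The small subunit tags gave like values, at 42.6 in YPD against 66.6 at T0 in YKO_aux and 28.6 in both in PB_prot. Mitochondrial aminoacyl-tRNA synthetase tags, of the enzymes that charge tRNAs for the same ribosome, were at 42.7 in YPD against 83.6 at T0 in YKO_aux. Tags of respiratory complexes III and IV are given in SC, a different medium from the YPD of these lists. They were at 38.3 in SC and 41.3 at T0 in YKO_aux. Their YPD value is not given, so whether they fell in YPD is not shown here.

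On glycerol, which yeast can use only by respiring, most of the members that could be tested in PB_prot and YKO_aux were lower than on glucose. The fitness defect (FD) of a strain is the median of the control arrays minus each treatment array, as the median over treatment arrays on the log2 scale, so a positive FD means lower in the treatment. A strain was called lower at an FD of 1 or more with a limma q (Benjamini-Hochberg over all strains of the set) under 0.05. In YPG, 2 of 7 BC_prot member strains, 20 of 26 PB_prot strains and 14 of 19 YKO_aux strains were lower, and none was higher. The members tested had median FDs of 0.47, 2.12 and 1.31. Members at background in a control array were not tested, so a rise from background could not be called, in YPG or the other media. Over all 86 member tags, tested or not, 9 in BC_prot, 3 in PB_prot and 8 in YKO_aux were over 1 log2 unit higher in YPG. The PB_prot median was 1.30 under quantile normalization and 1.11 over all 44 strains with no presence filter, and the YKO_aux median 1.10 and 0.94. Over all strains tested, 0.834% were lower in BC_prot, 4.81% in PB_prot and 2.62% in YKO_aux, with median FDs of 0.11, -0.03 and 0.02.

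**Figure D3:**
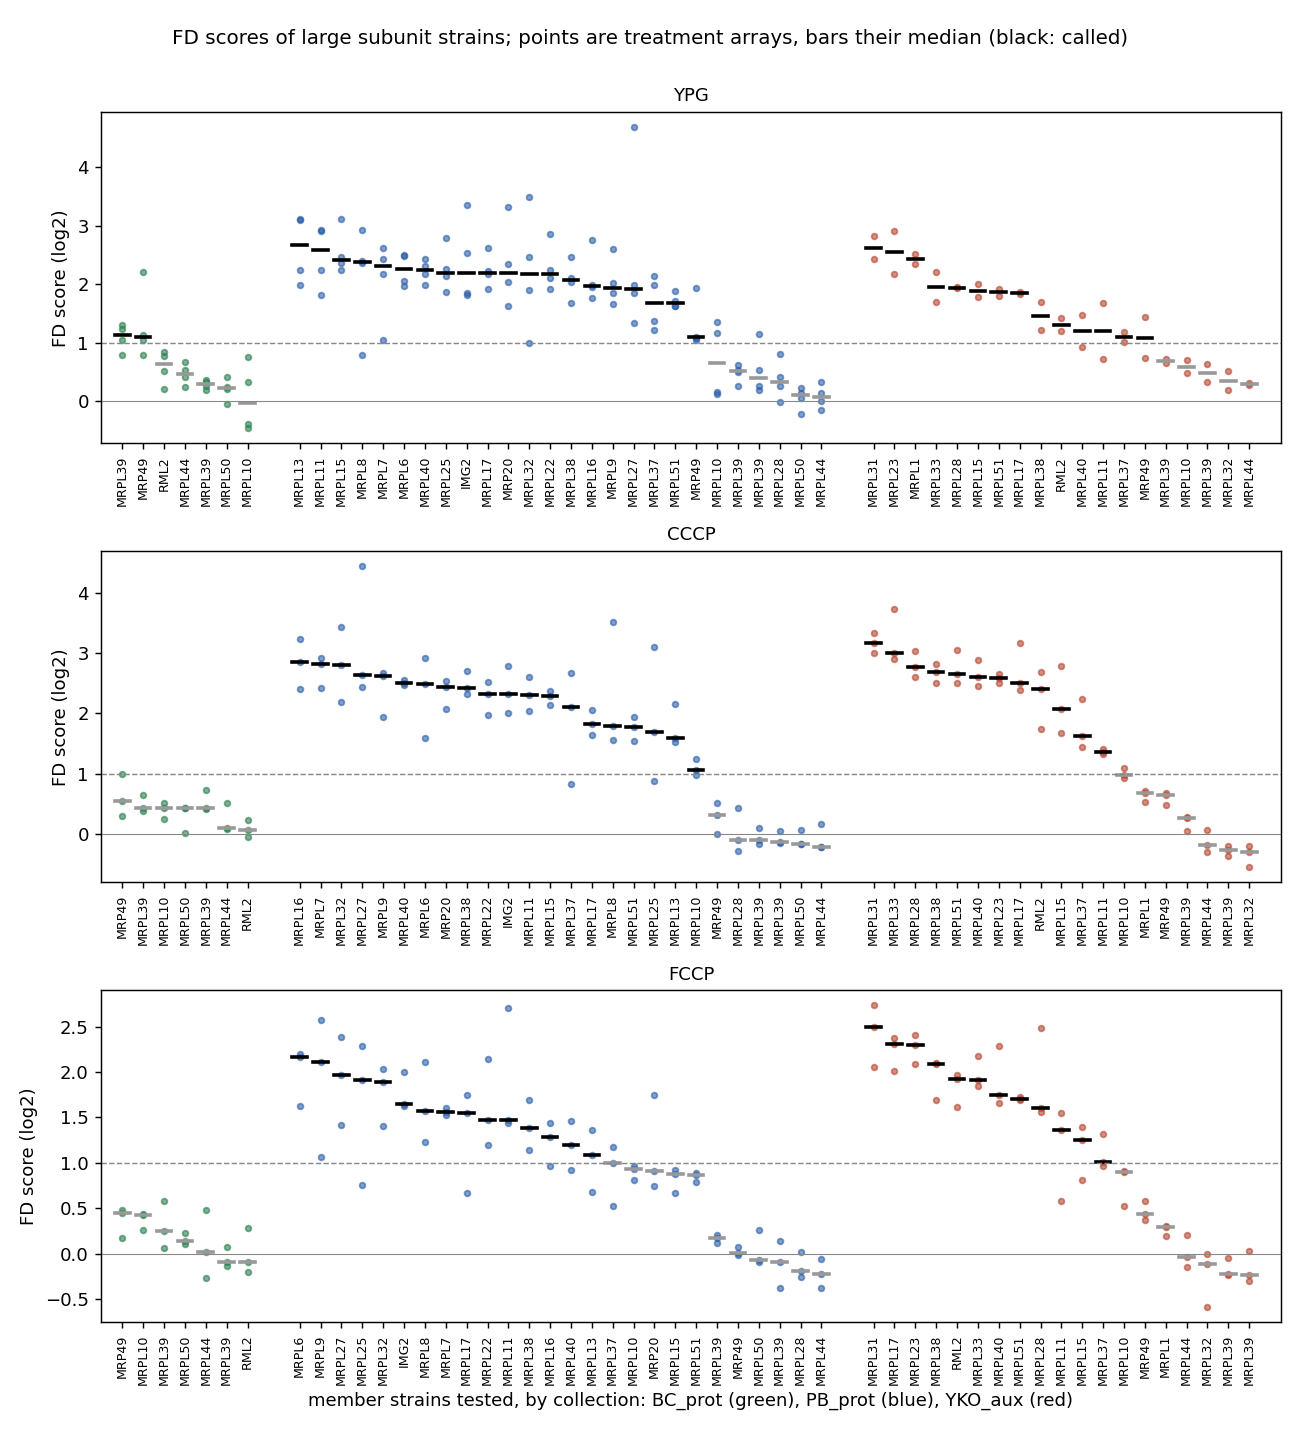
FD scores (log2, vertical axis) of every member strain tested in YPG, CCCP and FCCP, for BC_prot (green), PB_prot (blue) and YKO_aux (red). Points are treatment arrays, bars their median, black where called, and the dashed line marks an FD of 1. In YPG the bars of 20 PB_prot, 14 YKO_aux and 2 BC_prot strains are black.

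Against the YPD arrays that shared the background pattern of the YPG arrays, 20 of 26 were lower in PB_prot (median FD 1.84), 9 of 19 in YKO_aux (1.15) and 0 of 7 in BC_prot (0.35), where 0.521% of all strains were lower and MRP49 and MRPL39 had FDs of 0.90 (q = 0.0045) and 0.81 (q = 0.0094). Of all strains, 4.76% were lower in PB_prot and 2.14% in YKO_aux against those sharing arrays. Against the other YPD arrays the member counts were 20 in PB_prot, 14 in YKO_aux and 2 in BC_prot, beside 4.88%, 3.16% and 1.56% of all strains. Leaving out the YKO_aux control arrays that stand apart brought 13 more members into the test. Of the 32, 22 were then lower in YPG, and without YPD replicate 8 alone 22 of 28 were. The YPD arrays left out, replicates 1 and 8, both share the background of the YPG arrays. These counts thus lean on the YPD arrays that do not share it, and no share of all strains is given beside them. With either YPG array of YKO_aux left out, 8 or 9 of 19 were lower.

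In PB_prot the FDs in YPG of the 20 called members ran between 1.09 and 2.67. MRPL13 (YKR006C), found only in mitochondrial ribosomes, had log2 intensities of 6.85, 6.59, 5.72 and 5.74 in YPG, against a lowest of 8.35, a median of 8.83 and a highest of 9.90 in 9 YPD arrays. Every YPG array lay below every YPD array, and its FD was 2.67 ± 0.58 (SD, n = 4, q = 1.6e-11). MRPL11 (YDL202W), the relative of L10 that anchors the stalk proteins, read 8.12, 7.70, 7.02 and 7.02 in YPG, against 9.33 to 10.59 (median 9.94) in YPD, with an FD of 2.58 ± 0.54 (n = 4, q = 2.9e-11). MRPL15, also known only from mitochondria, came next with 6.97, 7.61, 7.85 and 7.72 in YPG, against 9.53 to 10.39 (median 10.08), an FD of 2.42 ± 0.39 (n = 4, q = 7.9e-14).

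IMG2, a further protein known only from mitochondrial ribosomes, read 6.64, 6.60, 5.11 and 5.93 in YPG, against 8.17 to 8.69 (median 8.46) in YPD, an FD of 2.20 ± 0.72 (n = 4, q = 1.2e-11). For MRPL11, MRPL15 and IMG2 too, the 4 YPG arrays lay below all 9 of YPD.

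In YKO_aux the highest FDs in YPG were those of MRPL31, MRPL23 and MRPL1. MRPL31 (YKL138C) read 6.07 and 6.47 in YPG, against 7.60 to 9.61 (median 8.90) in 8 YPD arrays, an FD of 2.63 ± 0.28 (n = 2, q = 7.8e-07). MRPL23 (YOR150W) read 6.07 and 6.79, against 7.51 to 9.46 (median 8.97), with an FD of 2.55 ± 0.51 (n = 2, q = 1e-06). MRPL1 (YDR116C) read 6.50 and 6.68, against 7.21 to 9.72 (median 9.03), with an FD of 2.44 ± 0.13 (n = 2, q = 1.1e-05). For all 3 genes both YPG arrays lay below every YPD array.

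All treatment arrays of a member lay below all of its control arrays in YPG for 2 of 7 members of BC_prot, 20 of 26 of PB_prot and 13 of 19 of YKO_aux. The same held for 2.76%, 6.03% and 4.71% of all strains tested. Many members reached background, which limits the size of their FD: 9 of 26 in PB_prot and 5 of 19 in YKO_aux were above the threshold in no YPG array. All 7 BC_prot members were above it in every YPG, CCCP and FCCP array.

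Most members of PB_prot and YKO_aux were also lower with the uncouplers, which were added to glucose medium. In 32 µM CCCP, 0 of 7 BC_prot members, 20 of 26 PB_prot members and 12 of 19 YKO_aux members were lower (median FD 0.42, 2.20 and 2.07), against 0.626%, 4.16% and 2.8% of all strains. The PB_prot median in CCCP was 1.21 under quantile normalization and 1.16 with no presence filter, and the YKO_aux median 1.59 and 1.71. In 6 µM FCCP the counts were 0 of 7, 15 of 26 and 12 of 19 (median FD 0.14, 1.24 and 1.36), against 0.678%, 2.94% and 2.29% of all strains. Under quantile normalization the FCCP medians of PB_prot and YKO_aux were 1.02 and 1.35, and with no presence filter 0.96 and 1.23. In BC_prot the unadjusted p was under 0.05 for 3 members in CCCP and 0 in FCCP. Without the control arrays that stand apart, 24 of 32 YKO_aux members were lower in CCCP and 23 of 32 in FCCP. At an FD of 1.5 the PB_prot count in FCCP was 9. No share of all strains is given beside these counts. No CCCP array was above the background threshold for 12 of 26 members of PB_prot and 5 of 19 of YKO_aux, and no FCCP array for 3 and 2, so the FDs of such members are limited by background and their order is not settled. The doses of CCCP and FCCP differ and both share the YPD_DMSO arrays, so their values stand side by side without a comparison.

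Members of both classes were lower. In PB_prot, 11 of 15 members with bacterial relatives and 9 of 11 without were lower in YPG, 12 and 8 in CCCP and 10 and 5 in FCCP. In YKO_aux, 7 of 11 and 7 of 8 were lower in YPG, and 6 of 11 and 6 of 8 in each of CCCP and FCCP.

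MRPL16 (YBL038W), the relative of L16 near the A site, had the highest CCCP score in PB_prot. 1 of its 3 CCCP arrays was above background. It read 7.60, 7.23 and 8.05 in CCCP, against 10.15 to 10.73 (median 10.47) in 8 YPD_DMSO arrays, an FD of 2.87 ± 0.41 (n = 3, q = 3.8e-14). Its FD in FCCP was 1.28 ± 0.24 (n = 3, q = 2.8e-06). MRPL7 (YDR237W), the relative of L5, read 6.43, 6.54 and 6.95 in CCCP, against 8.77 to 9.84 (median 9.37) in YPD_DMSO, an FD of 2.83 ± 0.27 (n = 3, q = 5.9e-08). In FCCP the highest score of PB_prot was that of MRPL6 (YHR147C), the relative of L6, which read 6.45, 7.00 and 6.42, against 8.13 to 9.19 (median 8.62) in YPD_DMSO, an FD of 2.16 ± 0.32 (n = 3, q = 1.3e-06). Next to it stood MRPL9 (L3), with 7.32, 7.78 and 8.83 in FCCP against 9.61 to 10.55 in YPD_DMSO (FD 2.11 ± 0.78, n = 3, q = 1.6e-07), and MRPL27, with 7.65, 7.24 and 8.20 against 9.19 to 10.21 (FD 1.97 ± 0.48, n = 3, q = 0.0018). None of these treated arrays overlapped its controls.

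In YKO_aux MRPL31 and MRPL33 lay at background in CCCP, below the threshold of 7.16 in all 3 arrays, so their FDs there have no order. MRPL31 read 6.21, 6.38 and 6.04 in CCCP, against 9.19 to 9.59 (median 9.38) in 9 YPD_DMSO arrays, with an FD of 3.17 ± 0.17 (n = 3, q = 4e-11), and 6.89, 6.65 and 7.32 in FCCP, with an FD of 2.49 ± 0.34 (n = 3, q = 3e-08). MRPL33 (YMR286W), the relative of L30, read 6.61, 6.71 and 5.89 in CCCP, against 7.45 to 9.79 (median 9.62), an FD of 3.02 ± 0.45 (n = 3, q = 1.4e-06). Both strains had all CCCP arrays below all YPD_DMSO arrays. In FCCP, MRPL17 followed with 7.28, 7.21 and 7.57 against 9.10 to 9.83 (FD 2.31 ± 0.19, n = 3, q = 7.8e-08), and MRPL23 with 6.78, 6.57 and 6.47 against 8.37 to 9.27 (FD 2.30 ± 0.16, n = 3, q = 2.4e-07).

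In PB_prot 15 strains were lower in all 3 of YPG, CCCP and FCCP, 4 in 2 of them, 2 in 1 and 5 in none. In YKO_aux 12 were lower in all 3, 2 in 1 and 5 in none. The share of all strains called in all 3 is not given here. CCCP and FCCP share the YPD_DMSO arrays, so their calls are not independent of each other. The 4 members of PB_prot that were called in YPG and CCCP but not in FCCP were MRPL15 (FD 0.87), MRPL51 (0.87), MRP20 (0.91) and MRPL37 (1.00, just under the threshold), each with a q under 0.05.

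MRPL1 and MRP49 were called in glycerol and in neither uncoupler. The MRPL1 strain of YKO_aux read 8.83, 8.66 and 8.69 in CCCP and 9.07, 9.06 and 9.18 in FCCP, against 9.09 to 9.90 (median 9.36) in YPD_DMSO, with FDs of 0.67 (q = 0.22) and 0.29 (q = 0.95). MRP49, found only in mitochondria, was called in YPG in each collection at nearly the same score: 1.09 ± 0.63 in BC_prot (n = 4, q = 2.2e-05), 1.09 ± 0.43 in PB_prot (n = 4, q = 1e-05) and 1.08 ± 0.50 in YKO_aux (n = 2, q = 0.00014). Its YPG arrays read 9.48, 9.83, 9.57 and 8.40 in BC_prot against 10.35 to 10.97 (median 10.62) in YPD. In PB_prot they read 9.14, 9.16, 9.20 and 8.30 against 9.32 to 10.72 (median 10.24), and in YKO_aux 9.91 and 9.20 against 10.27 to 10.94 (median 10.64). No YPG array overlapped the YPD arrays in any of the 3.

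The MRP49 scores lie close to the threshold. Against the YPD arrays that share the background of the YPG arrays the FD was 0.90 in BC_prot, 1.10 in PB_prot and 0.93 in YKO_aux, so the BC_prot and YKO_aux calls were lost with q values of 0.0045 and 0.003. With the replicate number as a block the FD was 1.26 in PB_prot (q = 0.057) and 0.96 in YKO_aux (q = 0.085), and neither was called. The YKO_aux FD of MRP49 was 0.97 without any 1 of YPD replicates 2, 3, 4 and 8, and 0.73 without YPG replicate 2. Its other tag, the uptag, had FDs of 1.66, 1.22 and 1.54 in YPG. In CCCP the kept tag had FDs of 0.54 (q = 0.25) in BC_prot, 0.30 (q = 0.77) in PB_prot and 0.64 (q = 0.015) in YKO_aux, and in FCCP 0.44 (q = 0.74), 0.00 (q = 1) and 0.44 (q = 0.15).

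The second BC_prot call in YPG was 1 of the 2 MRPL39 strains, the relative of L33. The strain with the identifier chr13_2 read 9.11, 8.87, 8.68 and 8.61 in YPG, against 9.33 to 10.11 (median 9.91) in YPD, with an FD of 1.14 ± 0.22 (n = 4, q = 0.00011). The strain chr00_4 of the same gene read 9.61, 9.45, 9.43 and 9.54, against 9.28 to 10.13 (median 9.79), an FD of 0.29 (q = 0.38). In PB_prot the FDs in YPG were 0.52 (q = 0.028) for chr13_2 and 0.40 (q = 0.0015) for chr00_4, and in YKO_aux they were 0.48 (q = 0.15) and 0.68 (q = 0.023). The 2 strains of this gene were thus under an FD of 1 in every comparison of YPG, CCCP and FCCP other than that of chr13_2 in BC_prot.

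MRPL44 and MRPL50 (L9), with MRPL39, were called in no YPG, CCCP or FCCP comparison of PB_prot or YKO_aux that tested them. MRPL44 (YMR225C) had FDs in YPG of 0.47 (q = 0.072) in BC_prot, 0.07 (q = 0.6) in PB_prot and 0.29 (q = 0.92) in YKO_aux. MRPL50 (YNR022C) had 0.23 (q = 0.71) in BC_prot and 0.10 (q = 0.87) in PB_prot. MRPL10 (YNL284C), the relative of L15, reached the threshold only in CCCP and PB_prot, where it read 8.34, 8.41 and 8.15 against 9.17 to 9.97 (median 9.39) in YPD_DMSO, an FD of 1.05 ± 0.14 (n = 3, q = 0.00052). In YKO_aux the same gene read 8.38, 8.43 and 8.27 against 9.12 to 9.90 (median 9.36), an FD of 0.98 ± 0.08 (n = 3, q = 0.00014), which is just short of a call. MRPL10, MRPL39, MRPL44, MRPL50, MRP49 and RML2 are also the members that BC_prot holds. Of these, MRP49 was called in YPG in each collection, and RML2 in YPG, CCCP and FCCP in YKO_aux.

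Of the members tested in both PB_prot and YKO_aux, MRPL32 and MRPL28 differed in their response. Of 14 shared strains, 8 were lower in both in YPG, 7 in CCCP and 4 in FCCP, while 1, 2 and 1 were lower in PB_prot alone and 1, 1 and 4 in YKO_aux alone. The difference in response was tested over all 3523 shared strains, and it passed q < 0.05 for 1 member in YPG, 2 in CCCP and 2 in FCCP, against 1.08%, 1.59% and 0.766% of all strains. Without the control arrays that stand apart, 8, 4 and 4 of 24 members passed, and 0 of 14 passed in YPG against the YPD arrays that share its background. The YKO_aux YPD arrays that stand apart are among those sharing ones, so these 2 settings pull the YPG count in opposite ways. No share of all strains is given for either, so the number of members that differ in YPG is not settled.

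MRPL32 (YCR003W), the relative of L32 whose maturation by the m-AAA protease precedes ribosome assembly, was lower in PB_prot and not in YKO_aux. In PB_prot it read 7.25, 6.69, 5.66 and 8.15 in YPG against 8.45 to 9.69 (median 9.15) in YPD, an FD of 2.18 ± 1.04 (n = 4, q = 1.8e-07). It read 7.01, 6.40 and 5.78 in CCCP and 7.32, 7.18 and 7.80 in FCCP, against 8.63 to 9.95 (median 9.21) in YPD_DMSO, with FDs of 2.81 ± 0.62 (q = 2.5e-08) and 1.88 ± 0.33 (q = 0.00018, n = 3 each). In YKO_aux it read 8.47 and 8.15 in YPG against 8.07 to 9.29 (median 8.66) in YPD, and 8.89, 8.54 and 8.63 in CCCP and 8.33, 8.44 and 8.91 in FCCP against 7.77 to 9.30 (median 8.33) in YPD_DMSO. There the treated arrays lay within the range of the controls, with FDs of 0.35, -0.30 and -0.11.

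The difference for MRPL32, PB_prot minus YKO_aux, was 1.87 in YPG (q = 0.024), 3.21 in CCCP (q = 4.3e-07) and 2.05 in FCCP (q = 0.0067). In YPG it was 1.99 with q = 0.091 against the YPD arrays that share its background, and it also missed the threshold without PB_prot YPG replicate 2 or 3 or either YKO_aux YPG array. In FCCP it was 1.87 with q = 0.059 without YKO_aux FCCP replicate 3. It was read on the uptag, and the downtag had like values, with FDs of 2.31, 2.52 and 1.34 in PB_prot and 0.33, -0.10 and -0.23 in YKO_aux.

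MRPL28 (YDR462W), found only in mitochondria, went the other way: it was lower in YKO_aux and not in PB_prot. In PB_prot it read 9.13, 8.40 and 8.94 in CCCP and 8.82, 9.03 and 9.09 in FCCP, against 8.48 to 9.41 (median 8.84) in YPD_DMSO, with FDs of -0.11 (q = 0.9) and -0.19 (q = 0.98). In YKO_aux it read 7.04, 7.46 and 7.31 in CCCP and 8.52, 7.60 and 8.48 in FCCP, against 9.85 to 10.40 (median 10.08), with FDs of 2.77 ± 0.22 (q = 3.7e-08) and 1.60 ± 0.52 (q = 9.4e-05, n = 3 each). The difference was -2.71 in CCCP (q = 2.3e-07) and -1.94 in FCCP (q = 0.00078). In YPG the FDs were 0.33 (q = 0.21) in PB_prot and 1.94 ± 0.02 (n = 2, q = 0.0036) in YKO_aux, whose 2 YPG arrays (7.88 and 7.91) lay within the range of YPD (7.60 to 10.23). Against the YPD arrays that share the background the YKO_aux call was lost (q = 0.074). Only the downtag of this strain could be used.

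RML2 differed between BC_prot and YKO_aux, and was not tested in PB_prot, where it fell short of presence in YPD. In PB_prot RML2 had untested FDs in CCCP and FCCP of 2.04 and 2.59 on the uptag and 3.21 and 2.23 on the downtag. In BC_prot it read 10.07, 9.91 and 10.19 in CCCP and 10.33, 10.23 and 9.84 in FCCP, against 9.34 to 10.64 (median 10.13) in YPD_DMSO, and the arrays overlapped, with FDs of 0.05 and -0.10. In YKO_aux it read 6.24, 6.53 and 7.19 in CCCP and 6.97, 7.32 and 7.01 in FCCP, against 8.49 to 9.17 (median 8.93), without overlap and with FDs of 2.40 ± 0.48 (q = 2.7e-08) and 1.93 ± 0.19 (q = 5e-06, n = 3 each). The difference, BC_prot minus YKO_aux, was -2.23 in CCCP (q = 0.00026) and -1.86 in FCCP (q = 0.01), the FCCP value missing the threshold without YKO_aux FCCP replicate 1 (-1.80, q = 0.054). RML2 was read on the downtag in BC_prot and the uptag in YKO_aux, and the downtag of YKO_aux had FDs of 2.19 and 2.13 in CCCP and FCCP. Between BC_prot and YKO_aux the difference passed for 0, 1 and 1 of 6 members in YPG, CCCP and FCCP, against 0.177%, 0.648% and 0.471% of 3394 shared strains. No difference between BC_prot and PB_prot passed for the 6 members they shared, against 2.45%, 0.985% and 0.619% of 3552 shared strains. There the unadjusted p was under 0.05 for 1 member in YPG, 2 in CCCP and 0 in FCCP.

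**Figure D4:**
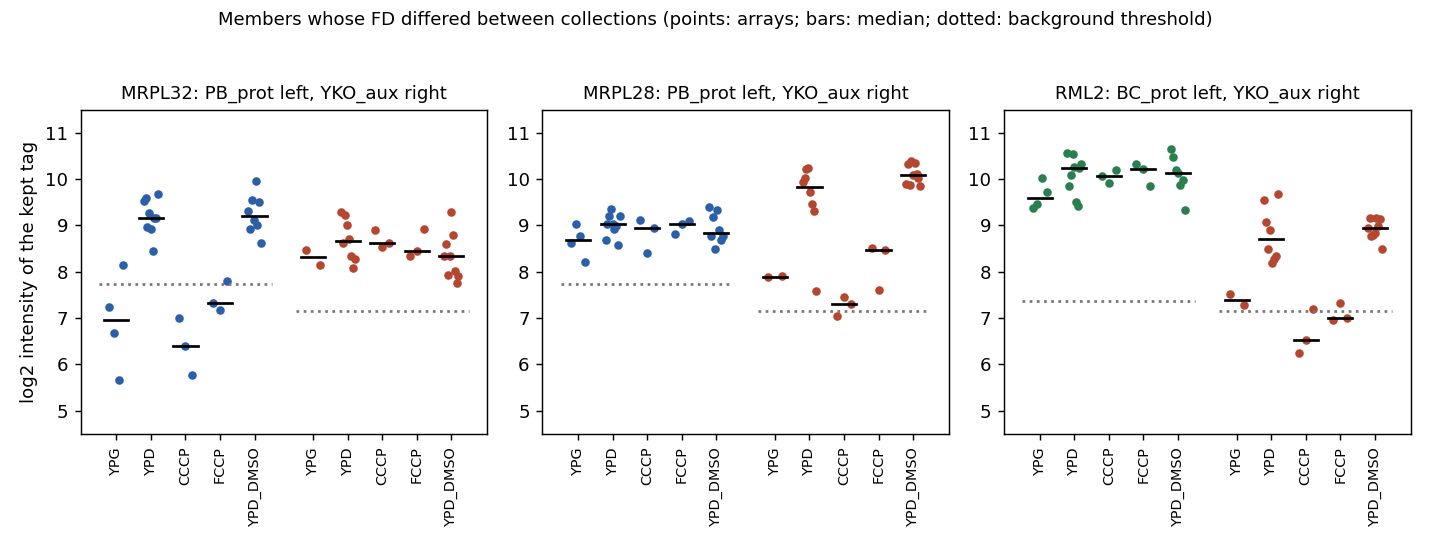
Log2 intensity (vertical axis) of MRPL32 and MRPL28 in PB_prot and YKO_aux and of RML2 in BC_prot and YKO_aux, by condition. Points are arrays, bars their median and dotted lines the background threshold of each collection; MRPL32 is lower with CCCP and FCCP in PB_prot (blue), as are MRPL28 and RML2 in YKO_aux (red).

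Calls in the amino acid and base dropouts were rare among members and among all strains alike. Summed over 12, 12 and 9 dropouts, 0 of 84 member tests were called lower in BC_prot, 3 of 348 in PB_prot and 0 of 288 in YKO_aux, against 0.0355%, 0.735% and 0.158% of all tests, and none was called higher. The unadjusted p was under 0.05 in 4, 13 and 17 of them. In MM, 0 of 7 members were lower in BC_prot, 3 of 29 in PB_prot and 0 of 32 in YKO_aux, against 0.601%, 4.59% and 1.17% of all strains, with unadjusted p under 0.05 for 0, 12 and 2. Replicate numbers paired the arrays in 12 of 13 such comparisons of PB_prot, and with the replicate number as a block 1 dropout call was left in place of 3, while 4 members were called in MM.

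MRPL28 was lower in PB_prot in MM and without leucine or uracil. It read 6.09, 6.01, 5.13 and 4.87 in MM, against 9.32, 8.83, 8.15 and 9.19 in SC, an FD of 3.44 ± 0.62 (n = 4, q = 3.6e-05). In LEU- it read 4.69, 6.10 and 7.83 (FD 2.91 ± 1.57, n = 3, q = 0.0043), and in URA- it read 5.84, 5.83 and 8.87 (FD 3.16 ± 1.75, n = 3, q = 0.047). In HIS- it read 6.03, 6.20 and 8.63 and was not called (FD 2.81 ± 1.45, n = 3, q = 0.076). In each of these 3 dropouts 2 arrays were far below SC and the other lay close to or within the SC range. Without methionine its FD was 0.22 (q = 1), and without lysine -0.18 (q = 1).

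The dropout calls of MRPL28 depended on the model. Blocked by replicate number, the FDs were 2.56 in LEU- (q = 0.089) and 1.92 in URA- (q = 0.18), and the URA- call was also lost without any of SC replicates 1, 2 and 4 or URA- replicates 1 and 2. The LEU- call was lost without LEU- replicate 1 (FD 2.05, q = 0.091). In YKO_aux the same strain read between 9.94 and 10.73 in every synthetic medium tested, SC included. Leucine, uracil and histidine dropouts were not analysed here for that collection, which needs all 3.

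MRPL25 (YGR076C), found only in mitochondria, was low in PB_prot without leucine and in MM. It read 6.94, 6.41 and 7.49 in LEU-, against 9.49, 9.54, 9.38 and 9.48 in SC, an FD of 2.54 ± 0.54 (n = 3, q = 7.8e-07), and 7.67, 7.36, 5.39 and 5.58 in MM, an FD of 3.01 ± 1.18 (n = 4, q = 1.4e-09). Neither medium overlapped SC, and both calls were kept with the replicate block. Its FDs in URA- and HIS- were -0.03 and 0.02. MRP20 (YDR405W), the relative of L23 at the exit tunnel, read 7.20, 8.40, 8.61 and 8.37 in MM, against 9.22, 9.53, 9.40 and 9.55 in SC, an FD of 1.08 ± 0.64 (n = 4, q = 0.00013).

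**Figure D5:**
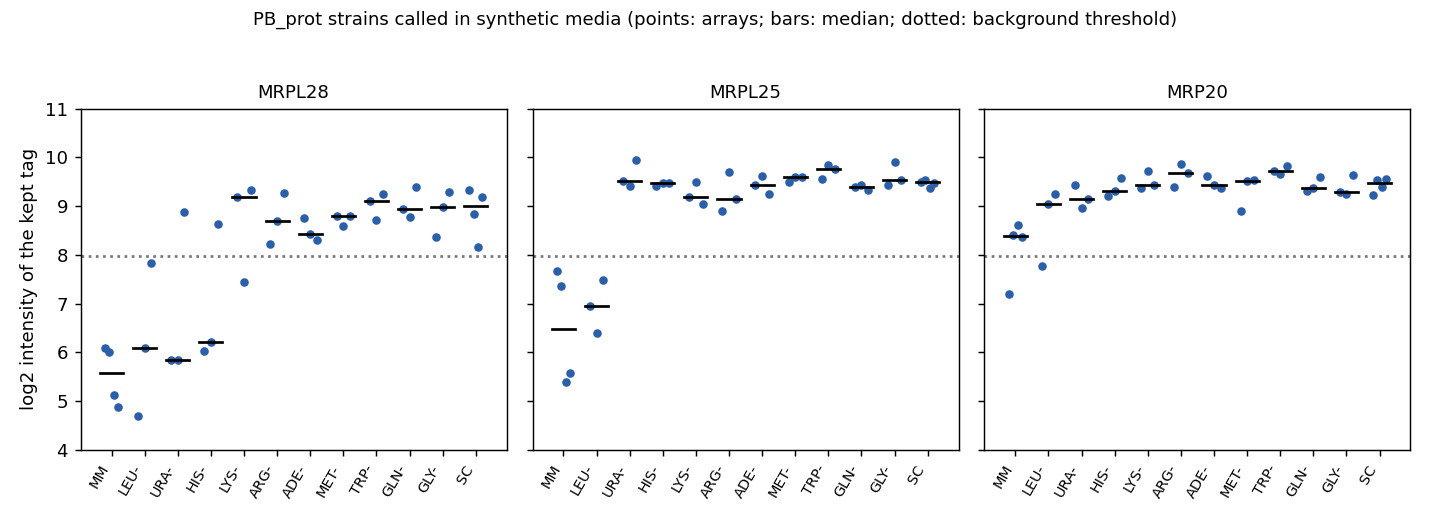
Log2 intensity (vertical axis) of MRPL28, MRPL25 and MRP20 in PB_prot in MM, in the dropouts drawn and in SC. Points are arrays, bars their median and the dotted line the background threshold; MRPL28 is called lower in MM, LEU- and URA-, MRPL25 in MM and LEU- and MRP20 in MM.

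Cisplatin, PYRQ and DMSO gave no member call in either direction. Summed over the 3, 0 of 21 member tests were lower in BC_prot, 0 of 78 in PB_prot and 0 of 57 in YKO_aux, against 0.53%, 0.473% and 0.475% of all tests. The unadjusted p was under 0.05 in 2, 9 and 15 of them. In cisplatin the member median FD was 0.22 in BC_prot, -0.25 in PB_prot and -0.41 in YKO_aux, against medians of all strains of -0.05, -0.07 and 0.02. MRPL32 in YKO_aux came nearest to a call, reading 8.68, 6.89 and 7.44 in cisplatin against 8.07 to 9.29 in YPD (FD 1.22 ± 0.92, n = 3, q = 0.083), and it was called without cisplatin replicate 1.

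Strains of other lists of the pathway were also called in the same comparisons. Of the small subunit strains tested, 0 of 4 were lower in BC_prot in each of YPG, CCCP and FCCP, 11, 11 and 10 of 15 in PB_prot, and 7, 9 and 9 of 13 in YKO_aux. Of the aminoacyl-tRNA synthetases, 7, 7 and 6 of 8 were lower in PB_prot and 5, 8 and 8 of 8 in YKO_aux, and of the mitochondrial translation factors 4, 4 and 4 of 6 and 3, 4 and 4 of 5. Strains of respiratory complexes III and IV were lower in 2, 2 and 0 of 9 in BC_prot, 8, 6 and 0 of 15 in PB_prot and 2, 2 and 0 of 8 in YKO_aux, so that none was called in FCCP in any collection, with an unadjusted p under 0.05 for 2, 4 and 2 of them. Of the large subunit assembly and 21S rRNA factors, 0, 0 and 0 of 2 were lower in BC_prot, 2, 2 and 1 of 5 in PB_prot and 1, 2 and 1 of 4 in YKO_aux. Of large subunit strains outside the 40 genes, the 1 tested in BC_prot had FDs of 1.15, 1.71 and 0.73 and was called in YPG and CCCP, 2, 1 and 1 of 3 were lower in PB_prot, and 1, 0 and 0 of 1 in YKO_aux.

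Dubious ORFs that overlap 2 members gave scores close to them. YGR219W, which overlaps MRPL9 (YGR220C, the relative of L3), had FDs of 2.02, 2.31 and 1.53 in YPG, CCCP and FCCP in PB_prot, beside 1.94, 2.63 and 2.11 for MRPL9. YKL169C, which overlaps MRPL38 (YKL170W, the relative of L14), had 2.19, 2.18 and 1.37 in PB_prot and 1.67, 2.15 and 1.59 in YKO_aux, beside 2.07, 2.43 and 1.38 and 1.45, 2.69 and 2.09 for MRPL38. All of these values were called lower. A deletion of either ORF removes part of its partner, so the values of each pair cannot be told apart by gene.

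Leaving out the control arrays that stand apart added further members in YKO_aux, whose YPD arrays left out share the background of the YPG arrays. IMG1 (L19), MRP7 and MRPL8 (L17) then had FDs in YPG of 2.57, 2.06 and 2.71. MRPL35, MRPL7 and MRPL27 had -0.06, 0.20 and 0.29 in YPG, where none was called, and 3.06, 2.50 and 1.89 in CCCP, where all 3 were, and the difference between YPG and CCCP was not tested. In PB_prot, without its own such arrays, MRPL35, MRPL7 and MRPL27 had 0.38, 2.38 and 1.81 in YPG, the last 2 of them called, and 2.56, 2.91 and 2.62 in CCCP, all called. MRPL13, the highest in YPG in PB_prot, had 0.98, 0.66 and 0.63 in YPG, CCCP and FCCP in YKO_aux and was not called.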

How the data were processed

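Barcode arrays (Affymetrix TAG4) measured strain abundance in 236 samples. The authors deposited log2 intensities per tag, median-normalised for uptags and downtags within 6 sets (collection by SC or YPD media), with T0 arrays in batches of their own. ComBat is named in the methods, and whether these values include it is not given in the sources used here. By the methods YPG cells were harvested automatically and the others manually, while the labels say manual for all. Value columns mapped to no sample numbered 0, and 2 arrays without a group were left out.

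From the deposited values, presence was set by a 2-component Gaussian mixture over control arrays (posterior over 0.5), and each strain was read on whichever present tag varied least (SD over mean) among the controls. FD, its SD over treatment arrays and limma q values (R 4.3.3, limma 3.58.1, all arrays of a set, 1 mean per condition, Benjamini-Hochberg over all strains) gave the calls. Differences between collections were interaction terms over all shared strains. Symbols came from the files' ORFs through RefSeq. Named genes were the 3 highest and 3 lowest FDs per comparison, calls in BC_prot, interactions, the 3 highest in MM and dropouts and 6 genes chosen by role; others were named after their values were seen. Members and lists were chosen with earlier results of these data known. Scripts were tested on simulated data. Alternatives were other filters, tag rules, quantile normalization, 2-group fits, a replicate block, an FD of 1.5, and each array left out; those on arrays that stand apart, BC_prot excess and background-sharing YPD arrays were chosen after seeing the data. Same-numbered SC-media arrays deviated together in 8 of 9 YKO_aux comparisons (r of 0.35 to 0.76) and 12 of 13 of PB_prot (0.41 to 0.87). No comparison of YPD media was counted as paired, but some of its pairs had a high r. The range was 0.07 to 0.77 in PB_prot cisplatin, -0.02 to 0.74 in PB_prot YPD_DMSO and -0.16 to 0.48 in YKO_aux YPD_DMSO. In BC_prot only 1 of 9 SC-media comparisons had 3 pairs and none was counted as paired, though r was 0.43 to 0.73 in LYS- and 0.56 to 0.77 in LEU-.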

Additional observations from a re-analysis of the deposited data

Results flagged for a closer look

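Among 19 groups of arrays tested for 1 array far from the others in its median member level, 3 had one. Of the 4 BC_prot LYS- arrays, 2 are labelled replicate 3, and 1 of these had a median log2 intensity of the member tags of 7.57, against 5.28 to 5.44 in the other LYS- arrays. BC_prot cisplatin replicate 2 had 7.34 against 5.12 to 5.19. YKO_aux YPD replicate 8 had 7.02 against 8.20 to 8.75. Among 18 groups of named members, MRP20 in PB_prot MM replicate 1 (7.20 against 8.37 to 8.61) and MRP49 in PB_prot YPG replicate 4 (8.30 against 9.14 to 9.20) stood apart from the other arrays. Chance marks about 1 in 20 such groups.

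The response differed between collections by a test of the difference itself in 7 cases. PB_prot minus YKO_aux was 1.87 in YPG, 3.21 in CCCP and 2.05 in FCCP for MRPL32, and -2.71 in CCCP and -1.94 in FCCP for MRPL28. BC_prot minus YKO_aux was -2.23 in CCCP and -1.86 in FCCP for RML2.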

How the results depend on the processing

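Among the recomputed counts other than those with 1 array left out, 36 moved by over 1.5 times. At an FD of 1.5, 0 members of BC_prot in YPG, 9 of PB_prot in FCCP and 8 of YKO_aux in YPG were lower. With every tag required, 16 genes of PB_prot were present in each of T0, SC and YPD and 7 of YKO_aux in YPD, PB_prot had 13, 12 and 9 calls in YPG, CCCP and FCCP, 0 in MM and 0 in dropouts, YKO_aux had 5, 4 and 4, and 0 members differed between PB_prot and YKO_aux in each of the 3. With a filter on the mean over all arrays YKO_aux had 24 calls in CCCP and 21 in FCCP, and with no filter 25 and 21, and 31 of its genes were present in YPD on the mean of the control arrays. Fits on 2 groups gave 1 dropout call in PB_prot and 8 YPG calls in YKO_aux. The replicate block gave 1 dropout call in PB_prot.

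Without the control arrays that stand apart, YKO_aux had 31 genes present in YPD and 22, 24 and 23 calls in YPG, CCCP and FCCP. Under that setting 8, 4 and 4 members differed from PB_prot, and the YKO_aux YPD arrays left out share the background of the YPG arrays. With the YPD arrays that share the background of the YPG arrays, YPG calls were 0 in BC_prot, 9 in YKO_aux and 20 in PB_prot, and 0 members differed between PB_prot and YKO_aux. Quantile normalization lowered the member median FD of PB_prot to 1.30 in YPG, 1.21 in CCCP and 1.02 in FCCP. It lowered that of YKO_aux to 1.10 in YPG and 1.59 in CCCP. With no presence filter the YKO_aux median in YPG was 0.94 and the PB_prot median in FCCP 0.96, both under an FD of 1. The cause of these shifts was not tested, other than that a stricter filter tests fewer members.

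Leaving out 1 array at a time moved the YKO_aux count in YPG between 8 and 22 (without YPG replicate 2 and YPD replicate 8), the PB_prot dropout count between 2 and 5 (5 without LEU- replicate 3), the YKO_aux count over cisplatin, PYRQ and DMSO between 0 and 1 (cisplatin replicate 1), members present in YKO_aux in YPD between 16 and 27, and differences between PB_prot and YKO_aux between 0 and 5 in YPG and 1 and 2 in FCCP, and between BC_prot and YKO_aux in FCCP between 0 and 1. Leaving out the BC_prot arrays with an excess over 1 log2 unit gave the same counts where arrays remained, with median FDs of 0.43 in CCCP and 0.27 in FCCP, but no YPG array remained. Without those over 2 log2 units, which leaves 2 YPG arrays, 2 of 7 members were lower in YPG (median FD 0.44).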

Other observations

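The uptag of MRPL28, below background in most YPD control arrays and so not used, read 9.30, 9.22, 7.35 and 6.75 in YPG in BC_prot, 8.79, 9.14, 6.62 and 8.74 in PB_prot and 8.88 and 9.15 in YKO_aux. In YPD replicates 1 to 5 it read at most 6.26 in BC_prot, 6.01 in PB_prot and 5.80 in YKO_aux. In YPD replicates 6 and 7 it read 8.84 and 8.99 in BC_prot, 8.74 and 8.30 in PB_prot and 8.78 and 9.16 in YKO_aux. Of the 86 member tags, 9 in BC_prot, 3 in PB_prot and 8 in YKO_aux had a YPG median over 1 log2 unit above that of YPD, and the uptag of MRPL28 was among them in each.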
